A study of Mus musculus with 12 samples.

Results

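Peritoneal exudate cells of 3 mice lacking Ifnar2 and of 3 wild-type mice were compared 3 hours after an injection of interferon beta (IFN-β) into the peritoneal cavity. These 6 single-colour Agilent arrays, of the 12 in the series, were chosen by their labels: the 3 that name Ifnar2-/- with IFN-β and the 3 that name wild type with IFN-β. All mice were females of 8 weeks with the strain given as 129S2/SvPas*BALB/c, and both groups received IFN-β from a solution of 10000 IU/ml, whose injected volume the labels leave out. The other 6 arrays hold the same genotypes after saline (PBS) and serve here as the genotype's background, since they share no array with the IFN-β comparison. Every array came from another mouse, per the series' design text, so replicate error here covers variation between mice. The knockout was carried by the whole animal as far as the labels say, and no label says whether the wild-type mice were littermates. The comparison asks how treated cells differ when 1 chain of the IFN-β receptor is missing. It does not by itself measure the response to IFN-β within either genotype.

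Type I interferons bind a receptor of 2 chains, encoded by Ifnar1 and Ifnar2. The kinases TYK2 and JAK1 sit on these chains and phosphorylate STAT proteins, among them STAT2, which together with IRF9 is part of the complex ISGF3. ISGF3 enters the nucleus and binds the interferon-stimulated response element (ISRE) in promoters of antiviral genes. Peritoneal cells are mainly resident macrophages and B cells, with fewer T cells, mast cells and other leukocytes, and the macrophages are known to answer IFN-β strongly.

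Because several of the leading lower genes are known targets of that complex, promoter stretches of 5 leading lower genes are shown, from RefSeq on GRCm38.p6. Capitals mark each match, on either strand, to the core of the ISRE, searched as TTTC, any 2 bases and TTTC, and each stretch is 120 bases from the 250 bases before the gene's start. In order they are Ifit3 (chr19:34583352-34583471, plus strand), Ifit1 (chr19:34640749-34640868, plus strand), Rsad2 (chr12:26456508-26456627, minus strand), Cxcl10 (chr5:92349020-92349139, minus strand) and Oas3 (chr5:120777670-120777789, minus strand).
Ifit3: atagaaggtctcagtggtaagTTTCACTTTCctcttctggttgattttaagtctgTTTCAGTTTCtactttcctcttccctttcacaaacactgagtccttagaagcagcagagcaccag
Ifit1: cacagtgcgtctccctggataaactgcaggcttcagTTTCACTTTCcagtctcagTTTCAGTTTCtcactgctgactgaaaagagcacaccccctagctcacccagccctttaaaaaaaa
Rsad2: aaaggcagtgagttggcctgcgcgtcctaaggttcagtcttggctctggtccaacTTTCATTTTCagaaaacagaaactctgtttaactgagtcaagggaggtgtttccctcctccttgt
Cxcl10: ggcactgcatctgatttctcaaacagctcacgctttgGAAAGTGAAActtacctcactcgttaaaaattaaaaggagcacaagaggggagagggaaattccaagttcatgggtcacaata
Oas3: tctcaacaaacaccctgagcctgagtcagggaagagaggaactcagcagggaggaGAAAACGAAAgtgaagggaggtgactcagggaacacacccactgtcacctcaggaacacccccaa
These 5 are the ones among the leading lower genes whose windows hold the letters. Ifi44, Ifit2, Oasl1, Cmpk2 and Ifi44l had windows without a match, and for Usp18, Mx1, Mx2, Cxcl11 and H2-Ea no window was available. Of all 32851 RefSeq windows of 250 bases, 978 hold the same letters, 2.98%. A match is a description of the sequence and no evidence of binding.

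A second group of promoters is shown beside them because these genes moved the other way. They belong to the CXCR2 ligands, chemokines that attract neutrophils and are known targets of the factor NF-kB. Capitals mark, on either strand, letters of an NF-kB site, searched as GGG, any 2 bases and TTTCC and found in 464 of the 32851 windows, 1.41%. The stretches lie at chr5:90891119-90891238 for Cxcl1, chr5:90903766-90903885 for Cxcl2 and chr5:90785973-90786092 for Cxcl3, all on the plus strand.
Cxcl1: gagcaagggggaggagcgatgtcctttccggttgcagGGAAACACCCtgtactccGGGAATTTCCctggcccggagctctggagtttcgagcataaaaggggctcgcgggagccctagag
Cxcl2: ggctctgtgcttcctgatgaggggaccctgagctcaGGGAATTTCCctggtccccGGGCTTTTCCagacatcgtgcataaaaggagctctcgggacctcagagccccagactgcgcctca
Cxcl3: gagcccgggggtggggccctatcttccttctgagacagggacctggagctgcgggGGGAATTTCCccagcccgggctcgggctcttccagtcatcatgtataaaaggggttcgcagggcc
The letters were not found in the 250 bases before Ppbp, the fourth CXCR2 ligand measured.

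Levels are given as log2 of the array's processed signal minus the 75th percentile of that array, so 0 is that percentile itself. A difference is always Ifnar2-/- minus wild type, and a difference of -1 is a signal 2-fold lower in the knockout. Errors of differences are standard errors from 1 limma fit to all 12 arrays, with 3 arrays per group, and adjusted p-values are Benjamini-Hochberg values over 17416 genes with a threshold of 0.05. A gene was tested if its probe was well above the scanner's background on all 3 arrays of at least 1 IFN-β group. Where the probe reached that on no array of the lower group, the difference is only a bound and is given as "at least N-fold". Where it reached that on 1 or 2 arrays of the lower group, the printed difference rests partly on signals too dim to measure, and this is said beside it. Every bound holds for this background method only. With normexp, another background method, differences of dim genes could fall below their bounds, such as 2.72 for Fgd5 and -6.01 for Cxcl11.

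Wild-type IFN-β arrays had 65.17% to 69.6% of 43379 spots well above background, and Ifnar2-/- IFN-β arrays 61.6% to 71.57%. Array 1 of the knockout shared slide 2 with wild-type arrays 2 and 3, wild-type array 1 lay on slide 1, and knockout arrays 2 and 3 lay on slide 3. The slide 3 arrays stood apart, with 24 and 26 saturated spots against 1 or 2 on the other IFN-β arrays, and with a higher lowest measurable level of -5.38 and -5.19 against -6.33 to -6.07. Correlations across genes were 0.989 to 0.9938 within the wild-type group, 0.9742 to 0.987 within the knockout group and 0.9194 to 0.9351 between them. Along the first principal component, 58.4% of the variance, the 3 wild-type IFN-β arrays lay at 102.48 to 110.02 and the other 9 at -53.84 to -12.75. Knockout array 3 was the highest on the second component, at 65.05, and carried the highest summed signal of neutrophil markers (309.86 in units of the array's 75th percentile, against 126.68 to 138.63 in the wild type).

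After IFN-β the knockout differed from the wild type at 7002 of 17416 genes, 40.2% of those tested. Of these, 3814 were higher in Ifnar2-/- cells (21.9%) and 3188 were lower (18.3%). Counts of called members in the gene lists below are to be read beside these shares. At least 2-fold differences were found at 1491 higher genes (8.56%) and 1730 lower genes (9.93%), and the direction was uneven at the extreme, where 329 genes were at least 8-fold lower and 88 at least 8-fold higher. Counts by fold in this paragraph use fitted differences, including those of genes too dim to measure in the lower group. The same test after PBS called 899 genes, 5.16%, with 3.04% higher and 2.12% lower, and 1.88% and 1.36% past 2-fold. The genotype difference itself changed with treatment at 3266 genes (18.8%), of which 1572 moved toward higher in the knockout (9.03%; 4.66% past 2-fold) and 1694 toward lower (9.73%; 7.08% past 2-fold). The 6 values of a gene did not overlap between groups at 4524 genes higher in the knockout (26%) and 3848 lower (22.1%). Without any scaling between arrays the median of all genes moved from 0.07 to 0.45 and the split became 7449 higher against 1817 lower, so small differences in either direction depend on the scaling. Within slide 2, where both genotypes were on 1 slide, 7000 of the 7002 called genes kept their direction. That comparison reuses arrays that gave these calls, with only 1 from the knockout, so agreement in direction is largely built in and is no separate check. With slide as a fixed term in the model, 4396 genes were called, and without the 2 knockout arrays of slide 3, 5153. Leaving out wild-type array 1 lowered the count most among single arrays, to 5369.

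The targeted gene was checked first. Its 60-base probe with the stronger signal lies at chr16:91444402-91444461 on the array design's own build, mm7 per the file headers, and within Ifnar2 by the array's annotation.
Ifnar2 probe: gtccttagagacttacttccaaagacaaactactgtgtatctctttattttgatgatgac
On the wild-type IFN-β arrays this probe read 4.67, 4.50 and 4.77, and on the knockout arrays 2.92, 3.03 and 3.20. The groups did not overlap and the difference was -1.60 ± 0.14 (adjusted p = 9.54e-06), close in size to the -1.85 found after PBS. The signal in the knockout stayed well above background on every array. A second Ifnar2 probe read 1.28, 1.09 and 1.78 in the wild type and 2.63, 3.00 and 3.11 in the knockout, a difference in the opposite direction of 1.53 ± 0.18 (adjusted p = 7.09e-05). The labels do not say which part of the gene was deleted, so neither probe can be placed inside or outside the deletion, and the array alone does not check the genotype label.

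The partner chain and the receptor's kinases differed by less than 1 log2 unit. Ifnar1, which binds IFN-β with lower affinity than Ifnar2, read 1.03, 0.44 and 0.32 in the wild type and 1.41, 1.04 and 1.33 in the knockout, so the knockout was higher by 0.66 ± 0.18 (adjusted p = 0.0123) with the lowest knockout value just above the highest wild-type value, and did not pass with the 6 IFN-β arrays alone (adjusted p = 0.0634). Jak1 read 4.73, 4.86 and 4.94 in the wild type and 4.52, 4.75 and 4.88 in the knockout, and its difference of -0.13 (95% interval -0.39 to 0.13) did not pass the test. Tyk2, the kinase on the IFNAR1 chain, was lower by a small step, -0.49 ± 0.13 (adjusted p = 0.0118), with no overlap. That difference was -0.27 within slide 2 (adjusted p = 0.389) and -0.40 without wild-type array 1 (adjusted p = 0.0547), and passed in neither.

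The factors downstream of the receptor are themselves induced by interferon, and these separated widely. Stat2 read 5.07, 5.04 and 5.38 in the wild type and 1.07, 1.29 and 0.96 in the knockout and differed by -4.05 ± 0.14 (adjusted p = 7.68e-09). Irf9, the DNA-binding part of ISGF3, read 3.84, 3.76 and 3.73 against 1.22, 1.51 and 1.02 and differed by -2.53 ± 0.13 (adjusted p = 1.53e-07). No wild-type value of either gene came within 2 log2 units of a knockout value. The saline-treated knockout read 1.21, 1.39 and 1.08 for Stat2 and 1.02, 1.12 and 1.09 for Irf9. Irf9 was also lower in the knockout after PBS, with a difference of -0.97 (adjusted p = 0.00163).

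Irf7, the interferon regulatory factor that amplifies interferon production, had the largest difference of its family. It read 5.69, 5.67 and 5.76 in the wild type and -1.99, -2.32 and -1.52 in the knockout, a difference of -7.65 ± 0.22 (adjusted p = 2.16e-09), and -1.53 after PBS (adjusted p = 0.00228). Irf1, Irf2 and Irf5 were also lower, with differences of -2.61, -1.44 and -0.90, whereas Irf4 was higher, by 1.24. Within slide 2, Irf2 (-1.12), Irf5 (-0.69) and Irf4 (0.55) did not pass (adjusted p = 0.0883, 0.0964 and 0.413). Irf3, which is present before any interferon signal, read 3.85, 3.79 and 3.77 against 4.06, 3.87 and 3.88 and its difference of 0.13 (95% interval -0.10 to 0.37) did not pass. Of the 16 JAK-STAT genes tested, 8 were lower and 3 higher (5 and 1 within slide 2). Stat4, a factor downstream of interleukin 12, was the highest of them at 1.496, and Jak2, a kinase of the interferon gamma receptor, was lower, with a difference of -1.54. Without any scaling between arrays the median of these 16 genes turned from -0.30 to 0.08.

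**Figure D1:**
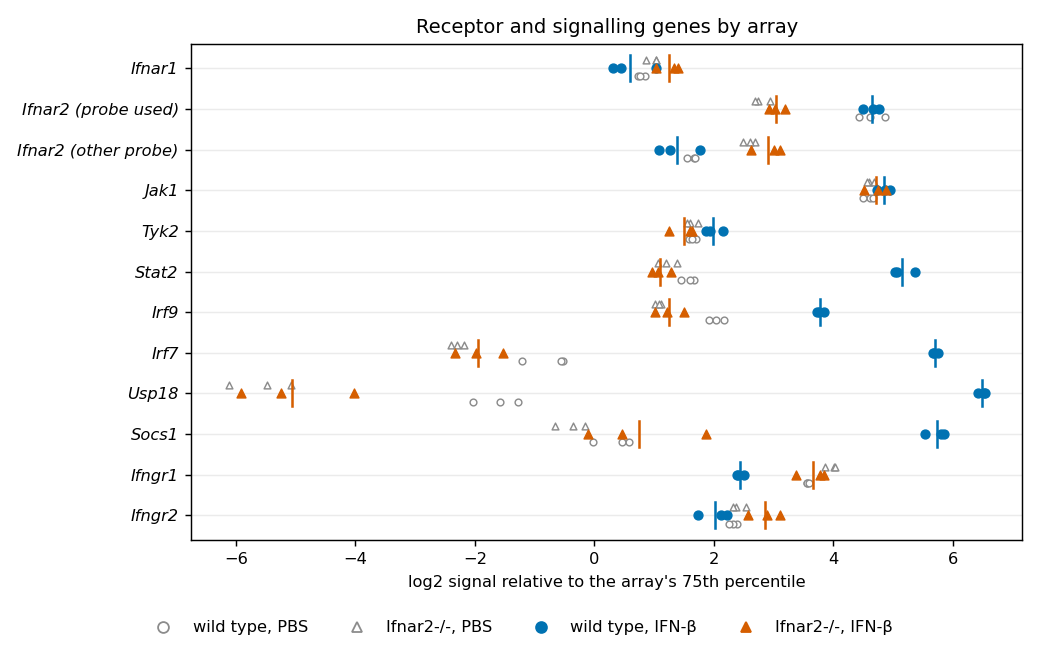
Receptor and signalling genes on each array, as log2 signal relative to the array's 75th percentile (horizontal axis). Filled symbols are the 3 wild-type (circles) and 3 Ifnar2-/- (triangles) IFN-β arrays with vertical bars at their means, and open grey symbols are the PBS arrays. Stat2, Irf9, Irf7, Usp18 and Socs1 are separated by 2.53 to 11.55 log2 units, whereas Jak1 overlaps.

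Of the other 5 interferon receptor genes tested, 4 were higher in the knockout. Ifngr1, the binding chain for interferon gamma, read 2.41, 2.398 and 2.50 in the wild type and 3.78, 3.84 and 3.37 in the knockout, a difference of 1.23 ± 0.13 (adjusted p = 3.23e-05). Ifngr2, the signalling chain, was higher by 0.83 ± 0.16 (adjusted p = 0.00219), with no overlap. After PBS the differences were 0.38 and 0.09, and neither passed (adjusted p = 0.129 and 0.793). Ifnlr1, the receptor for interferon lambda, was not well above background on any wild-type array (mean -8.27) and reached -5.50, -4.40 and -3.18 in the knockout, at least 3.418-fold higher (adjusted p = 2.07e-04). It did not pass with normexp background correction (0.46, adjusted p = 0.111) or with values raised to a common floor (0.82, adjusted p = 0.161).

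Of 13 feedback inhibitors of cytokine signalling, 5 were lower and 4 higher (4 and 2 within slide 2). Usp18, which removes ISG15 from proteins and blocks signalling at the IFNAR2 chain, read 6.54, 6.42 and 6.52 in the wild type and -5.25, -5.91 and -4.02 in the knockout. The difference was -11.55 ± 0.42 (adjusted p = 1.19e-08), with 1 knockout array not well above background. Socs1, an inhibitor of JAK kinases, read 5.86, 5.54 and 5.81 against -0.10, 0.46 and 1.87 and differed by -4.99 ± 0.40 (adjusted p = 4.71e-06). Socs2, Socs3 and Socs7, of the same family, were lower by smaller steps, with differences of -1.27, -0.80 and -0.65. Socs3 did not pass without knockout array 1 (-0.52, adjusted p = 0.0517) or without wild-type array 3 (-0.66, adjusted p = 0.0754). Socs4, Socs5, Pias2 and Pias3, the latter inhibitors of STAT binding to DNA, were higher, by 0.39 to 1.07, with Socs4 and Pias2 not past the test within slide 2 (adjusted p = 0.0774 and 0.181).

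Antiviral interferon-stimulated genes held many of the most negative differences of the comparison. Of 53 genes tested from a list of 60, 51 were lower, none was higher, and the median difference was -4.60 beside 0.07 for all genes, where 18.3% were lower. Within slide 2 the median was -4.36 and 50 were lower. For 50 of the 53 the difference after IFN-β was also more negative than that after PBS by the test of the change. The members that did not pass were Ifitm2, 0.00 (95% interval -0.39 to 0.38), and Ifitm1, 0.32 (-1.27 to 1.90), both membrane proteins that hinder virus entry. Their relative Ifitm3 was lower, with a difference of -1.34 (adjusted p = 3.2e-05).

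The IFIT proteins bind foreign RNA and block its translation. Ifit3, with 2 ISRE cores in the stretch above, read 7.54, 7.07 and 7.37 in the wild type and -5.19, -5.44 and -7.40 in the knockout. The difference was -13.34 ± 0.50 (adjusted p = 1.37e-08), although 2 of the 3 knockout values were not well above background. Ifit1 read 6.24, 6.17 and 6.43 in the wild type and reached background on no knockout array (mean -6.99), at least 3855-fold lower (adjusted p = 1.99e-09). Ifit2 read 5.96, 5.85 and 5.85 against -4.61, -5.58 and -6.50 and differed by -11.45 ± 0.41 (adjusted p = 9.25e-09), with 1 of 3 knockout arrays well above background. All 3 wild-type mice lay close together for each of these genes, and the dim knockout values were spread more widely.

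Rsad2, which encodes viperin, an enzyme that makes a chain-terminating nucleotide, read 7.78, 7.64 and 7.94 in the wild type and -4.88, -5.49 and -5.76 in the knockout. It differed by -13.16 ± 0.38 (adjusted p = 2.24e-09). Its neighbour Cmpk2, a nucleotide kinase, read 7.03, 6.80 and 6.85 against -3.25, -3.63 and -4.30 and differed by -10.62 ± 0.24 (adjusted p = 3.93e-10). The Mx proteins, GTPases that trap viral nucleoproteins, followed, Mx1 with 4.41, 4.44 and 4.43 against -5.35, -7.54 and -6.41 and a difference of -10.86 ± 0.51, and Mx2 with -10.65. Ifi44, an interferon-induced gene of less certain function, read 5.51, 5.35 and 5.76 against -4.59, -6.60 and -7.18 and differed by -11.66 ± 0.56, and its relative Ifi44l was at least 718.4-fold lower. None of these genes overlapped between the groups on the 6 arrays. Of the 3 knockout arrays, 1 was well above background for Rsad2, Mx1 and Ifi44 and 2 for Mx2, so the sizes of these 4 differences rest partly on unmeasured signal.

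Oligoadenylate synthetases are enzymes that sense double-stranded RNA. Oasl1, a relative without synthetase activity that holds back Irf7 translation, read 6.53, 6.31 and 6.35 in the wild type and -4.90, -4.85 and -4.28 in the knockout, a difference of -11.07 ± 0.19 (adjusted p = 1.22e-10). Oas3 read 3.80, 3.44 and 3.996 in the wild type and reached background on no knockout array, at least 663.8-fold lower (adjusted p = 1.42e-08). Oas2, Oas1a and Oas1b differed by -8.27, -7.45 and -4.54, and Oas1g, not well above background on any knockout array, was at least 13.75-fold lower, with Oas1 copies so alike in sequence that a probe may read more than 1. The ubiquitin-like modifier Isg15 read 7.58, 7.41 and 7.45 against -2.08, -2.37 and -2.21, a difference of -9.70 ± 0.15 (adjusted p = 1.17e-10). Its activating enzyme Uba7 and conjugating enzyme Ube2l6 were lower by smaller amounts, with differences of -2.98 and -4.70.

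**Figure D2:**
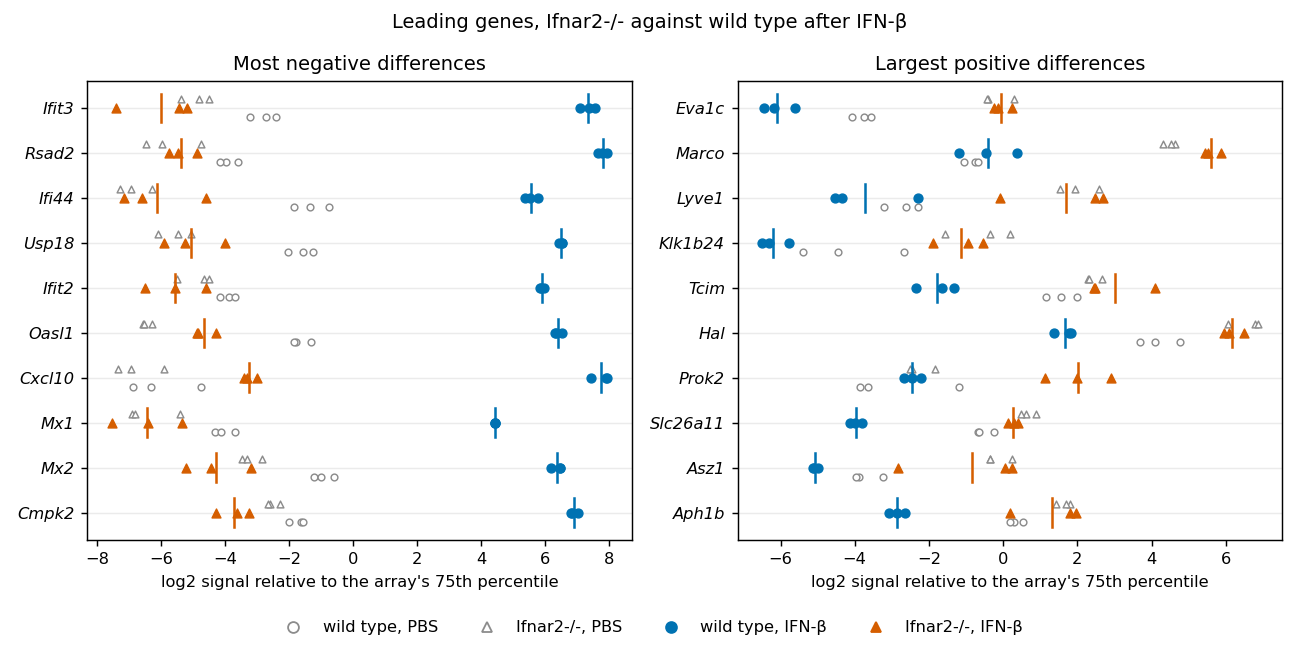
The 10 genes with the most negative (left) and the 10 with the largest positive (right) differences among those well above background on at least 1 array of each IFN-β group, per array as log2 signal relative to the array's 75th percentile. Filled circles are wild type and filled triangles Ifnar2-/- after IFN-β with bars at the means, and open symbols are the PBS arrays. On the left every wild-type IFN-β value lies at 4.41 or above and every knockout value at -3.02 or below.

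Interferon-inducible GTPases, which attack the vacuoles of intracellular pathogens, were lower at every member tested. All 16 tested of a list of 19 passed, with differences of -10.19 to -2.43 and a median of -5.52 (-5.44 within slide 2). Iigp1 read 7.40, 7.19 and 7.46 in the wild type and -2.39, -2.01 and -4.11 in the knockout, a difference of -10.19 ± 0.42 (adjusted p = 2.88e-08). Tgtp1 read 6.37, 6.52 and 6.64 against -2.18, -1.83 and -2.08 and differed by -8.54 ± 0.24. Gbp6 and Gbp4, guanylate-binding proteins, differed by -8.73 (1 of 3 knockout arrays well above background) and -6.63, and the smallest difference was that of Gvin1, -2.43. After PBS 9 of the 16 were lower as well, with a median there of -0.78.

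The Schlafen family, regulators of lymphocyte and myeloid growth, was lower at all 8 members tested, with a median of -4.92. Slfn5 read 4.49, 4.21 and 4.66 in the wild type and -3.32, -3.29 and -4.48 in the knockout, a difference of -8.15 ± 0.29 (adjusted p = 8.85e-09). Slfn2, at -2.21, differed least. Slfn8, Slfn9 and Slfn10-ps (-5.68, -6.02 and -4.96) are closely related copies, so their probes may share transcripts. The Ifi200 family of DNA-binding proteins was lower at 6 of 7 members tested. Ifi204 read 7.50, 7.40 and 7.52 against 2.45, 2.66 and 2.41, a difference of -4.97 ± 0.12, whereas the inflammasome sensor Aim2 of the same family differed by -0.88 (95% interval -1.68 to -0.07) and did not pass (adjusted p = 0.0780).

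The list of nucleic acid sensors and adaptors, which also holds receptors for bacterial products, had members in both directions. Of all genes 18.3% were lower and 21.9% higher. Of 22 tested, 12 were lower and 5 higher, with a median of -0.53, and within slide 2, 8 and 2. Zbp1, a sensor of left-handed nucleic acid that can start cell death, read 7.13, 6.93 and 7.25 in the wild type and 0.13, 0.00 and 0.44 in the knockout, a difference of -6.91 ± 0.14 (adjusted p = 2.72e-10). Tlr3, the endosomal receptor for double-stranded RNA, differed by -4.82 ± 0.29, and Cgas, the cytosolic DNA sensor, by -2.48 ± 0.16. The higher members were Tlr5, Ticam2, Cd14, Tlr1 and Ly96, by 0.51 to 1.45, none of them itself a sensor of nucleic acid. Cd14, the co-receptor for lipopolysaccharide, rested on knockout array 3, whose value of 7.87 stood above 6.36 and 6.55 on the other knockout arrays and 5.74 to 6.34 in the wild type, and its difference of 0.92 did not pass without that array (0.45, adjusted p = 0.0650), without wild-type array 2 or 3 (adjusted p = 0.105 and 0.131) or within slide 2 (0.52, adjusted p = 0.485). Tlr5 did not pass without knockout array 3 (0.93, adjusted p = 0.0653) or without any 1 wild-type array (adjusted p of 0.0509 to 0.0713), and Tlr5 and Tlr1 did not pass within slide 2 (adjusted p = 0.367 and 0.0613).

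**Figure D3:**
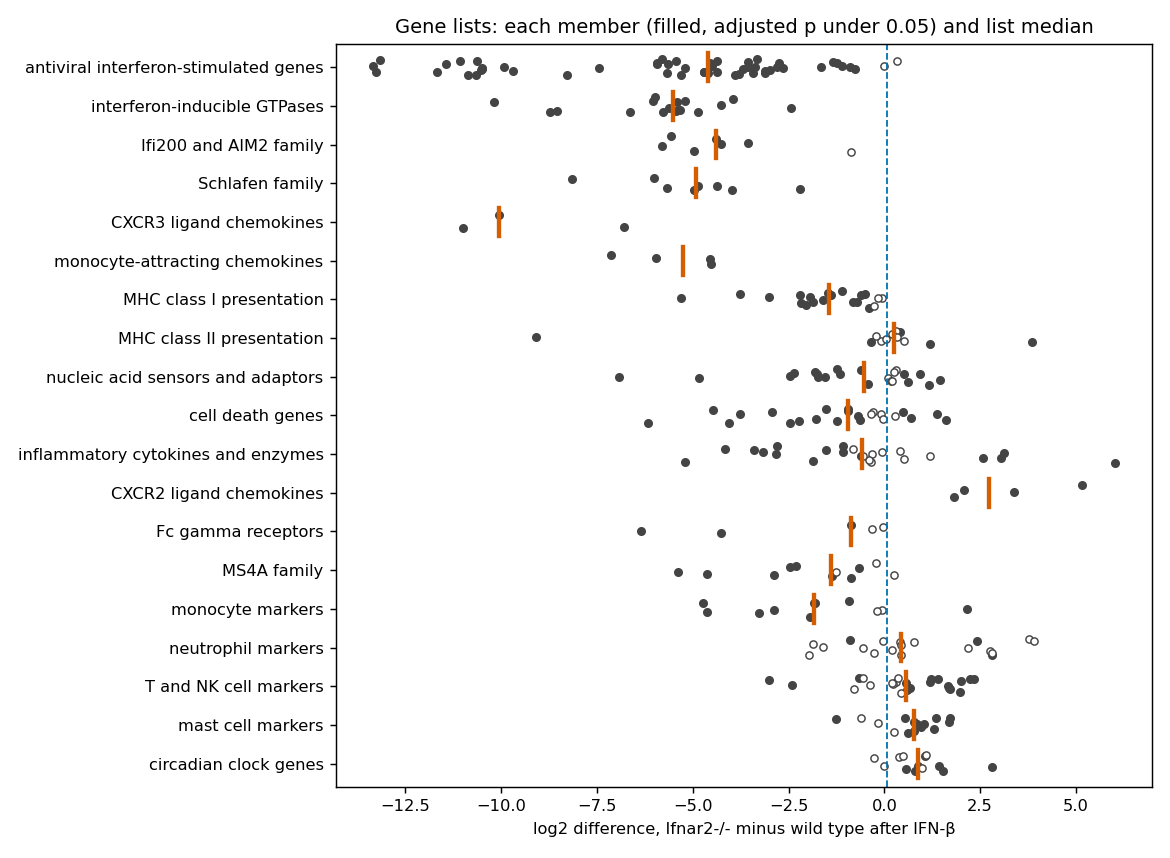
Log2 difference, Ifnar2-/- minus wild type after IFN-β, of every tested member of 19 gene lists (horizontal axis). Filled points have an adjusted p under 0.05, open points do not, orange bars are list medians and the dashed blue line is the median of all genes, 0.07. The antiviral, GTPase, Ifi200 and Schlafen lists lie at medians of -5.52 to -4.39, and the CXCR2 ligands at 2.73.

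Antigen presentation by MHC class I was lower at 17 of 20 members tested and higher at none, with a median of -1.44. The peptide transporter Tap1 read 3.27, 3.53 and 3.38 in the wild type and -0.19, -0.29 and -0.64 in the knockout, a difference of -3.76 ± 0.18 (adjusted p = 8.15e-08). Psmb9, a subunit of the immunoproteasome, read 6.24, 5.83 and 6.05 against 3.13, 3.24 and 2.74 and differed by -3.004 ± 0.17. The non-classical molecule H2-T24 had the largest difference, -5.32 ± 0.20. The classical heavy chain H2-K1 read 7.45, 7.09 and 7.38 against 7.04, 7.28 and 7.07, and its difference of -0.17 (95% interval -0.52 to 0.17) did not pass. B2m, the shared light chain, was lower by a small step, -0.51 ± 0.18 (adjusted p = 0.0447).

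MHC class II genes, which present antigen to helper T cells, had 2 members lower, 3 higher and 7 not called of 12. Of all genes 18.3% were lower and 21.9% higher. The main chains H2-Aa, Cd74 and H2-Eb1 differed by -0.08, 0.30 and 0.04, none past the test. H2-Ob, a chain of the peptide-exchange inhibitor H2-O, read -3.43, -3.18 and -3.54 in the wild type and 0.14, 0.61 and 0.62 in the knockout, a difference of 3.84 ± 0.23 (adjusted p = 5.67e-07). It was also higher after PBS, by 3.31 (adjusted p = 3.11e-05). H2-Ea, the alpha chain of the E molecule, read 2.16, 2.67 and 1.94 in the wild type and was not well above background on any knockout array, at least 228.5-fold lower. It read 2.64, 2.00 and 2.67 in saline-treated wild type and -7.83, -7.25 and -6.74 in saline-treated knockout, where it again reached background on no array, at least 284.2-fold lower (adjusted p = 2.32e-07).

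Chemokines divided by receptor. The CXCR3 ligands, which draw T and NK cells, were lower at all 3 members. Cxcl10 read 7.91, 7.42 and 7.94 in the wild type and -3.41, -3.02 and -3.31 in the knockout, a difference of -11.001 ± 0.49 (adjusted p = 5.47e-08). Cxcl9 read 2.44, 1.82 and 2.18 against -5.24, -4.61 and -4.09 and differed by -6.80 ± 0.32. Cxcl11 reached background on no knockout array and was at least 270.2-fold lower than its wild-type values of 3.14, 2.03 and 2.17. The groups were fully apart for each of them.

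The monocyte-attracting chemokines were lower at all 4 members, with differences of -7.12 to -4.53. Ccl2, the main ligand of CCR2, read 6.98, 7.06 and 6.74 in the wild type and 1.67, 2.13 and 3.34 in the knockout, a difference of -4.54 ± 0.34 (adjusted p = 2.36e-06). The knockout values after IFN-β still lay above those after PBS, which were 0.53, 0.50 and 0.72, a contrast given here without a test. Ccl7 read 6.33, 6.79 and 6.20 against -1.07, 0.37 and 2.12 and differed by -5.96 ± 0.62, with the widest spread of the 4 among knockout mice. Ccl12 read 3.78, 3.81 and 4.14 against -2.99, -2.70 and -3.95 and differed by -7.12 ± 0.34 (adjusted p = 7.72e-08). Ccl4 and Ccl3, which attract monocytes and T cells, were lower by smaller steps, with differences of -3.24 ± 0.36 and -1.34 ± 0.35, and Ccl3 did not pass with slide in the model (adjusted p = 0.103).

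The CXCR2 ligands stood on the other side. All 4 tested were higher in the knockout, beside 21.9% of all genes. Cxcl3 and Ppbp, however, entered the test only through the knockout arrays, so this count was partly set by the filter. Cxcl1 read 0.94, 1.07 and 0.54 in the wild type and 2.86, 3.46 and 2.45 in the knockout, a difference of 2.07 ± 0.23 (adjusted p = 4.76e-05; 2.06 within slide 2, adjusted p = 0.0114). Cxcl2 read 0.66, 0.58 and -0.01 against 2.41, 2.54 and 1.69 and differed by 1.81 ± 0.23 (adjusted p = 1.17e-04). Cxcl3 was not well above background on any wild-type array (mean -6.96) and read -2.63, -1.94 and -0.81 in the knockout, at least 20.25-fold higher, with a difference of 4.35 within slide 2 that did not pass there (adjusted p = 0.0873). Ppbp, the platelet chemokine, was at least 3.9-fold higher and likewise did not pass within slide 2 (adjusted p = 0.380). With normexp background correction the differences of Cxcl3 and Ppbp were 2.04 and 0.51, smaller than their bounds, and Ppbp did not pass (adjusted p = 0.110). After PBS the differences of Cxcl1 and Cxcl2 were -0.36 and -0.28, and none of the 4 passed. Summed neutrophil markers after IFN-β were 159.18 to 309.86 in the knockout against 126.68 to 138.63 in the wild type. In saline-treated mice they overlapped, at 136.43 to 173.95 in the knockout and 91.37 to 197.12 in the wild type. On slide 2 alone the sums after IFN-β were 159.18 in the knockout against 126.68 and 138.63. Of 19 neutrophil markers 2 were higher, Fpr1 and S100a8, and 1 lower, Fpr2, and their part in the chemokine difference was not tested. The median of the 19 was 0.43, but -0.36 within slide 2 and -0.13 without knockout array 3. S100a8 did not pass within slide 2 (1.02, adjusted p = 0.604) or without knockout array 2 or 3 or wild-type array 1 or 3 (2.06 to 2.71, adjusted p of 0.0619 to 0.0756). Fpr2 did not pass within slide 2 (-0.36, adjusted p = 0.575) or without wild-type array 1 or 3 (-0.86 and -0.82, adjusted p = 0.0656 and 0.0664). Cxcl5, the remaining ligand of the list, did not reach the level needed for the test.

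**Figure D4:**
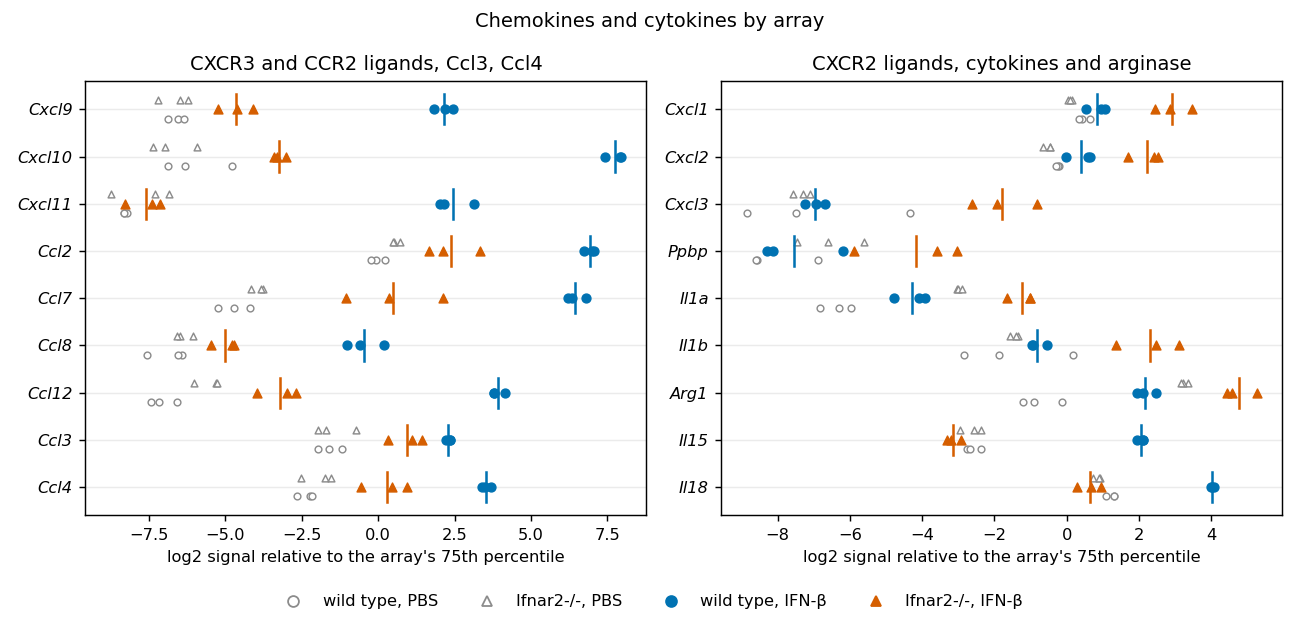
Chemokines and cytokines on each array as log2 signal relative to the array's 75th percentile (horizontal axis), with filled circles for wild type and filled triangles for Ifnar2-/- after IFN-β, bars at their means and open symbols for the PBS arrays. CXCR3 and CCR2 ligands, Ccl3 and Ccl4 are lower in the knockout (left), while the CXCR2 ligands, Il1a, Il1b and Arg1 are higher (right) and Il15 and Il18 lower.

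Inflammatory cytokines and enzymes also went both ways, 11 lower and 4 higher of 24 tested, beside 18.3% and 21.9% of all genes. Il1b, a cytokine that type I interferon is known to restrain, read -0.54, -0.98 and -0.93 in the wild type and 1.36, 2.46 and 3.11 in the knockout, a difference of 3.12 ± 0.65 (adjusted p = 0.00301). It was 2.31 within slide 2, where it did not pass (adjusted p = 0.157). Il1a read -4.09, -3.93 and -4.79 against -1.67, -1.01 and -1.01 and differed by 3.04 ± 0.28 (adjusted p = 1.12e-05), and it differed by 3.39 after PBS too (adjusted p = 6.83e-05). Arg1, an arginine-consuming enzyme of alternatively activated macrophages, was higher by 2.58 ± 0.28 after IFN-β and by 3.99 after PBS. The smaller difference after IFN-β was past the test of the change (-1.41, adjusted p = 0.0325).

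Among the lower cytokines, Il15, which supports NK and memory T cells, read 2.10, 1.95 and 2.11 in the wild type and -2.93, -3.33 and -3.22 in the knockout, a difference of -5.21 ± 0.17 (adjusted p = 6.14e-09). Il18 differed by -3.40 ± 0.16 and its soluble inhibitor Il18bp by -3.24 ± 0.18. Acod1, the enzyme that makes itaconate, read 6.51, 5.39 and 5.64 against 1.35, 1.70 and 2.05 and differed by -4.15 ± 0.54. Il6 read 4.58, 4.10 and 3.61 against 0.94, 1.81 and 1.10 and differed by -2.81 ± 0.27 (adjusted p = 1.86e-05). Ifng was lower by a similar amount, with a difference of -2.83, while Tnf differed by -0.56 (95% interval -1.24 to 0.11) and did not pass.

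NF-kB genes had members in both directions, at shares near those of all genes, 21.9% higher and 18.3% lower. Of the 22 tested 4 were higher, 5 lower and 13 not called (3 higher and 1 lower within slide 2), and the median was 0.09. Rela, the main activating subunit, read 3.63, 3.28 and 3.67 against 3.68, 3.61 and 3.52 and differed by 0.08 (95% interval -0.20 to 0.36). Tnip1, an inhibitor of the pathway, was the highest, at 1.45 ± 0.14. Cd40, a costimulatory receptor, was the lowest, at -1.66 ± 0.14, yet was higher in the knockout after PBS, by 0.79 (adjusted p = 0.00854).

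Cell death genes were lower at 14 of 23 members and higher at 4, with a median of -0.95. Within slide 2, 11 were lower and none higher. Tnfsf10, which encodes the death ligand TRAIL, read 1.78, 1.49 and 2.00 in the wild type and -4.17, -4.36 and -4.73 in the knockout, a difference of -6.17 ± 0.24 (adjusted p = 1.87e-08). Mlkl, the pore-forming protein of necroptosis, differed by -4.05 ± 0.21, and Daxx, a histone chaperone named for its link to the Fas receptor, by -4.48 ± 0.11. Casp1, the inflammasome protease, read 6.06, 5.85 and 6.17 against 3.90, 3.59 and 3.21 and differed by -2.46 ± 0.17. Bcl2, which holds back apoptosis, was higher by 1.62 ± 0.28 (adjusted p = 9.77e-04). Bcl2 missed the threshold within slide 2 (1.59, adjusted p = 0.0522). Gsdme, a pore-forming gasdermin, was not settled. Its brightest probe was higher by 1.38 (adjusted p = 0.0863 within slide 2), and another probe of the gene was lower, with a difference of -3.41 (adjusted p = 4.14e-08).

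Receptors on myeloid cells had members lower, higher and not called. Fcgr1, the high-affinity receptor for IgG, read 7.43, 7.26 and 7.61 in the wild type and 1.30, 0.92 and 1.04 in the knockout, a difference of -6.35 ± 0.21 (adjusted p = 5.23e-09). Fcgr4 followed with -4.25 ± 0.23, whereas Fcgr3 and the shared signalling chain Fcer1g differed by -0.03 and -0.32 and did not pass. The MS4A membrane proteins were lower at 8 of 11, led by Ms4a4d and Ms4a4c, with differences of -5.39 and -4.63. Of 14 TREM and CD300 receptors 5 were higher and 1 lower, beside 21.9% and 18.3% of all genes, and within slide 2, 3 and 1. Treml1 read -2.71, -3.24 and -1.67 against 0.42, 0.38 and 0.80 and differed by 3.07 ± 0.38, and Treml4 differed by 2.62 ± 0.26. The checkpoint ligand Cd274, which encodes PD-L1, was lower, with 5.33, 5.12 and 5.10 against 1.18, 1.73 and 2.47 and a difference of -3.39 ± 0.33 (adjusted p = 2.05e-05).

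Marker lists were read to see which cells the arrays held. The defining genes of large peritoneal macrophages were detected, 19 of 20 tested, and Adgre1, which encodes F4/80, read 7.20, 6.73 and 6.88 in the wild type and 7.04, 7.09 and 6.50 in the knockout, a difference of -0.06 (95% interval -0.50 to 0.38). Their summed signal was 1154.46 to 1308.85 in the wild type and 1269.08 to 1459.33 in the knockout, with overlap. B cell markers, 18 of 20 tested, summed to 547.06 to 670.92 against 496.41 to 587.79, also with overlap. Neither macrophage nor B cell sums separated the genotypes. In such mixed samples fewer cells of a type and less RNA per cell cannot be told apart.

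Sums of the monocyte and mast cell lists did not overlap, and neither did those of the neutrophil, dendritic cell, eosinophil and stromal lists. Dendritic cell markers summed to 86.01 to 122.71 in the wild type and 27.65 to 34.04 in the knockout. Yet 5 of the 13 members were higher and 3 lower, with a median difference of 0.34. The list includes Bst2, which is also interferon-stimulated and was among the lower members. Eosinophil sums were 5.9 to 9.46 against 4.97 to 5.26, and mesothelial and stromal sums 5.19 to 6.43 against 3.43 to 3.87. Monocyte markers summed to 571.48 to 606.81 in the wild type and 248.2 to 265.53 in the knockout, with 8 of 11 lower and 1 higher. The lower ones were led by Vcan, a matrix proteoglycan (-4.74), Ms4a4c (-4.63) and Chil3, a chitinase-like protein (-3.27), with the highest knockout value of Vcan and Chil3 on array 3 (-3.56, -3.69 and 0.12 for Vcan). Ms4a4c and Ms4a6c also belong to the MS4A list and Ly6c1 to the Ly6 list. Ccr2, the receptor that defines inflammatory monocytes, read 3.24, 2.98 and 2.82 against 2.84, 2.84 and 3.19, a difference of -0.06 (95% interval -0.54 to 0.42), and F13a1 was higher by 2.17 ± 0.27. Saline-treated mice of both genotypes lay at the knockout's level, 252.83 to 284.69 and 258.51 to 283.73. The wild-type IFN-β sums were thus the ones apart from the other 3 groups, and what part cell numbers have in this was not tested.

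Mast cell markers were higher at 11 of 15 members and lower at 1, with sums of 239.43 to 284.24 in the wild type and 319.55 to 367.43 in the knockout. After PBS their sums were likewise apart, 234.83 to 311.84 against 327.05 to 396.9, with a median difference of 0.62. Kit, the receptor for stem cell factor, read -0.83, -1.23 and -0.83 against 0.90, 0.62 and 0.61 and differed by 1.68 ± 0.21 (adjusted p = 9.96e-05). Fcer1a, a chain of the IgE receptor, differed by 1.29 ± 0.18, and by 1.48 after PBS (adjusted p = 9.14e-04). Hdc, which makes histamine, was the lower member, at -1.26 ± 0.45, with knockout array 3 inside the wild-type range, and did not pass without any 1 of 5 of the arrays (-1.35 to -0.88, adjusted p of 0.0734 to 0.169) or within slide 2 (adjusted p = 0.165). T and NK cell markers were higher at 13 of 24 and lower at 3, with summed signals that overlapped, 13.28 to 15.34 against 14.21 to 17.06. Thy1 was higher by 2.24 ± 0.22 and Klrb1c by 2.33 ± 0.36, while Gzmb, a cytotoxic protease, was lower, with 2.50, 2.04 and 2.07 against -1.26, -1.13 and 0.01 and a 95% interval of the difference of -3.85 to -2.15 (adjusted p = 1.35e-04). Within slide 2, 6 of these T and NK cell markers were higher and 7 of the mast cell markers. Red cell genes varied between mice. Hba-a1, a globin, read 4.28, 4.47 and 7.78 against 6.09, 4.18 and 4.73, with wild-type array 3 the highest, and none of 6 erythroid markers passed.

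Circadian clock genes were higher at 7 of 13 and lower at none, with a median of 0.89 (0.66 within slide 2, where 4 were higher). Nr1d1, the repressor REV-ERBα, read -4.21, -4.24 and -3.97 in the wild type and -1.04, -1.45 and -1.52 in the knockout, a difference of 2.80 ± 0.19 (adjusted p = 1.21e-06), and 0.13 after PBS (adjusted p = 0.754). Tef and Bhlhe40 were higher by 1.52 ± 0.16 and 1.42 ± 0.20. Immediate-early genes were higher at 8 of 26 and lower at 2, beside 21.9% and 18.3% of all genes. With quantile normalization 13 were higher and without scaling between arrays 16, so this count depends on the scaling. Dusp1, a phosphatase that ends MAP kinase signals, read -0.14, -0.07 and 1.74 against 2.62, 3.80 and 2.63 and differed by 2.50 ± 0.56, while Atf3, a stress-induced repressor, was lower, with 4.32, 4.21 and 4.43 against 1.80, 1.56 and 3.103 and a difference of -2.17 ± 0.35. Within slide 2, 2 immediate-early genes were higher and 2 lower, and Dusp1 did not pass there (1.78, adjusted p = 0.219).

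Among metabolic genes Ch25h, which makes the antiviral oxysterol 25-hydroxycholesterol, read 2.68, 2.74 and 2.10 in the wild type and -4.86, -5.32 and -4.61 in the knockout, a difference of -7.44 ± 0.34 (adjusted p = 6.83e-08) with 2 of 3 knockout arrays well above background. The sterol list around it had 6 higher and 2 lower of 22, with a median of 0.32, and within slide 2 it had 1 of each. In glycolysis 5 of 16 genes were lower and 4 higher, and both lists stand beside 18.3% of all genes lower and 21.9% higher. The hexokinases Hk3, Hk2 and Hk1, which start the pathway, differed by -1.94 ± 0.21, -1.40 ± 0.12 and -0.80 ± 0.14, and the regulator Pfkfb3 by -1.64 ± 0.28. Pgam1, Aldoa, Gpi1 and Pfkl, enzymes of later steps, were higher by 0.40 to 0.85, and within slide 2 the same list had 5 lower and 1 higher. Mcm6, a subunit of the replicative helicase, was lower, with 4.05, 4.88 and 4.01 against 2.01, 2.19 and 1.90 and a difference of -2.28 ± 0.25, although Mki67, the usual proliferation marker, differed by -0.01 (95% interval -1.18 to 1.17). Cell cycle genes were lower at 6 of 24 and higher at none, beside 18.3% and 21.9% of all genes, with 4 further Mcm helicase subunits among the 6. Their median difference was -0.52 after IFN-β and -0.62 after PBS, where none passed. Without scaling between arrays 2 were lower and 1 higher. Within slide 2, 2 cell cycle genes were lower. Heat shock genes were lower at 4 of 15, beside 18.3% of all genes, led by Hspa1a, an inducible chaperone, at -2.25 ± 0.24. Without scaling between arrays, however, 1 was lower and 1 higher and the median moved from -0.38 to 0.00.

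The genes highest in the knockout relative to the wild type were of varied kinds. Marco, a scavenger receptor for bacteria and particles, read -0.45, -1.19 and 0.37 in the wild type and 5.87, 5.52 and 5.43 in the knockout, a difference of 6.03 ± 0.31 (adjusted p = 1.67e-07). Lyve1, a hyaluronan receptor of lymphatic vessels and some resident macrophages, read -4.54, -4.33 and -2.31 against 2.70, 2.47 and -0.08 and differed by 5.42 ± 0.75 (adjusted p = 2.3e-04). Hal, which breaks down histidine, read 1.37, 1.77 and 1.84 against 5.96, 6.50 and 6.09 and differed by 4.52 ± 0.30 (adjusted p = 9.94e-07). Marco and Lyve1 were also higher after PBS, by 5.33 and 4.73, and Hal by 2.38 (adjusted p = 0.00107). Klk1b24, a kallikrein with close copies that a probe may share, and Asz1, a germ cell gene, were higher by 5.06 ± 0.65 and 4.23 ± 0.65, and by 3.60 and 3.55 after PBS, with 1 of 3 wild-type IFN-β arrays well above background for Klk1b24.

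For other leading genes the difference after PBS did not pass or was smaller. Tcim, a small regulator of transcription and Wnt signalling, read -1.66, -2.34 and -1.31 in the wild type and 2.47, 2.46 and 4.11 in the knockout, a difference of 4.78 ± 0.43, against 0.86 after PBS (adjusted p = 0.288). Prok2, a secreted protein that attracts and activates macrophages, read -2.22, -2.47 and -2.67 against 1.13, 1.99 and 2.92 and differed by 4.47 ± 0.64, against 0.63 after PBS (adjusted p = 0.625). Slc26a11, an anion transporter, read -4.001, -3.80 and -4.12 against 0.13, 0.30 and 0.39 and differed by 4.25 ± 0.16. Aph1b, a subunit of gamma-secretase, differed by 4.17 ± 0.38. Its near-identical copy Aph1c was at least 4.41-fold higher, and a probe may read both. With normexp background correction the difference of Aph1c was 0.63.

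Some genes were not well above background in the wild type after IFN-β and measurable in the knockout. Fgd5, an exchange factor of endothelial cells, reached background on no wild-type array (mean -8.19) and read -0.06, -0.75 and -2.11 in the knockout, at least 35.8-fold higher (adjusted p = 1.15e-06). Sox7, a transcription factor of endothelium, read -0.27, -1.65 and -1.77 in the knockout and was at least 29.87-fold higher, and Pdgfb, a growth factor, at least 17.01-fold higher. In saline-treated wild type the same genes were well above background on all 3 arrays, at -4.67, -4.29 and -5.76 for Fgd5, -2.52, -2.64 and -1.94 for Sox7 and -4.91, -6.01 and -5.50 for Pdgfb. Prtg, which encodes the adhesion protein protogenin, was at least 26.98-fold higher, and after PBS it was also higher (adjusted p = 9.09e-06), with 1 of 3 wild-type arrays well above background there. With normexp background correction the IFN-β differences of Fgd5, Sox7, Pdgfb and Prtg were 2.72, 2.47, 1.92 and 2.31, smaller than their bounds.

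Genes near Ifnar2 on chromosome 16 were listed apart because they lie beside the targeted locus. Of 21 tested, 10 were higher and 2 lower, with a median of 0.10. Eva1c, a heparin-binding membrane protein, was among the leading higher genes, with -6.19, -6.45 and -5.61 in the wild type, -0.13, -0.25 and 0.24 in the knockout and a difference of 6.04 ± 0.26. Only 1 of its 3 wild-type values was well above background, and with normexp background correction the difference was 3.46. It was also higher after PBS, by 3.61 (adjusted p = 3.24e-05). Another probe of Eva1c gave 6.23 and one more gave -0.99 (adjusted p = 0.0328), so its probes disagree in direction. Runx1, a transcription factor of blood cells, was higher by 1.60 ± 0.13 after IFN-β and 1.65 after PBS. Itsn1, an endocytic scaffold, had probes in both directions, from -1.36 to 1.37, so its direction is not settled, and Synj1, its partner in endocytosis, differed by -1.41 ± 0.17.

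The genotype differences after IFN-β were then set beside those after PBS, which come from 6 other arrays. Of the 3814 genes higher after IFN-β, 385 were also higher after PBS, which is 10.1% of the first list and 72.8% of the 529 in the second. Of the 3188 lower, 262 were also lower after PBS, 8.22% and 70.8% of the lists. Opposite calls were found at 45 genes, 35 of them lower after IFN-β and higher after PBS. After PBS all wild-type arrays lay on slide 1 and all knockout arrays on slides 2 and 3, so genotype and slide cannot be told apart there, and with slide in the model 31 genes were called in place of 899.

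Among the antiviral genes a lower level was already seen in saline. Of the 53 tested, 18 were lower in the knockout after PBS and none higher, with a median of -0.42 there, beside 2.12% of all genes lower. Rtp4, a chaperone that limits flavivirus replication, read 2.18, 2.70 and 2.74 in saline-treated wild type and -3.81, -3.38 and -3.26 in saline-treated knockout, a difference of -6.02 (adjusted p = 1.43e-07). After IFN-β it read 6.91, 6.81 and 7.05 against -3.41, -3.46 and -3.90, a difference of -10.52 ± 0.20. Oasl1 differed by -4.81 after PBS and -11.07 after IFN-β, and Ifi44 by -5.52 and -11.66, with 1 of 3 saline-treated knockout arrays well above background for each. Cxcl10, by contrast, differed by -0.75 after PBS (adjusted p = 0.419), where its probe was well above background on 1 array of each genotype.

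Some genes differed by genotype with and without IFN-β. Atp6v0e2, a subunit of the vacuolar proton pump, read 1.65, 1.75 and 1.45 in the wild type and -4.28, -4.47 and -5.18 in the knockout after IFN-β, a difference of -6.26 ± 0.21 with 2 of 3 knockout arrays well above background, and -6.40 after PBS. Cd209a, a C-type lectin of dendritic cells and macrophages, reached background on no knockout array after IFN-β and was at least 53.85-fold lower, with -6.17 after PBS (1 of 3 knockout arrays well above background). Ccm2l, an endothelial scaffold, differed by -6.14 ± 0.39 and -7.04, each with 1 of 3 knockout arrays well above background. In the other direction Pianp, a ligand of paired receptors, was at least 7.213-fold higher after IFN-β and at least 12.6-fold higher after PBS. With normexp background correction its difference after IFN-β was 0.81. For Atp6v0e2, Ccm2l, Marco and Lyve1 the change of the difference between treatments did not pass the test (adjusted p of 0.321 to 0.831).

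**Figure D5:**
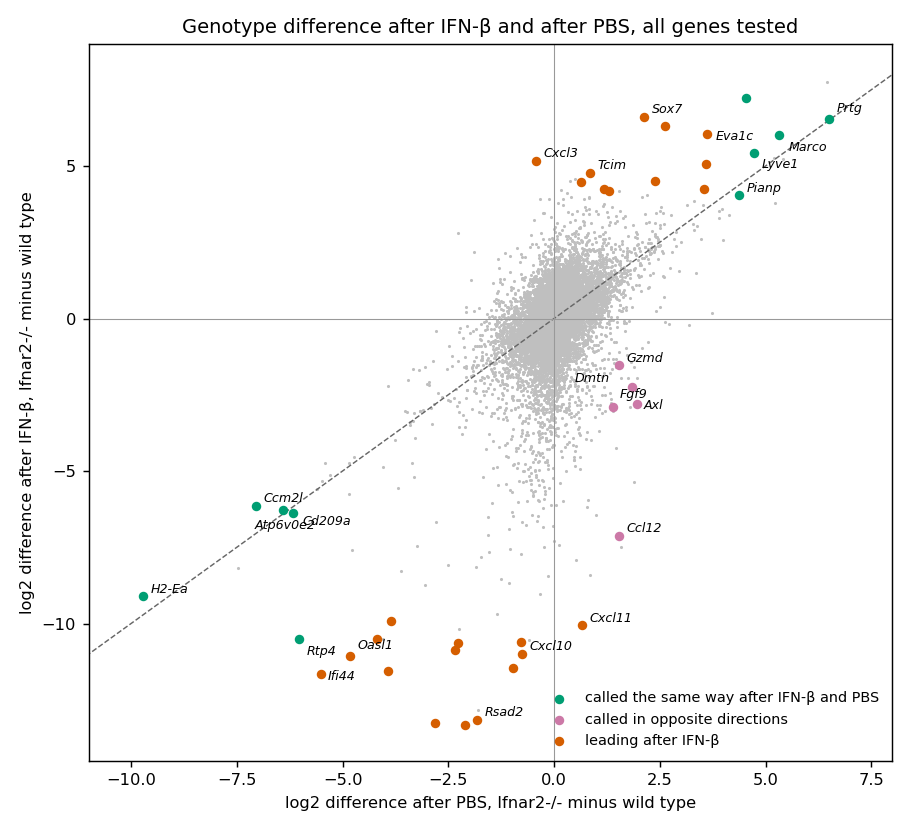
Log2 difference, Ifnar2-/- minus wild type, after IFN-β (vertical axis) against that after PBS (horizontal axis) for all 17416 genes (grey), with named genes coloured by how they were chosen. The dashed line marks equal differences. H2-Ea, Ccm2l, Marco and Prtg lie near it, and Rsad2 and Cxcl10 lie far below it, with changes between treatments of -11.34 and -10.25.

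Of the 45 genes called in opposite directions, 5 are given. Axl, a receptor kinase that clears dying cells and dampens inflammation, read -2.92, -3.72 and -3.85 in wild type and -1.03, -1.65 and -1.95 in knockout after PBS, higher by 1.95 in the knockout (adjusted p = 0.00536). After IFN-β it read 1.08, 0.62 and 1.44 against -1.42, -1.75 and -2.06, a difference of -2.79 ± 0.32 (adjusted p = 6.07e-05). Ccl12, not well above background on any saline-treated wild-type array, likewise went from at least 2-fold higher after PBS to -7.12, and Fgf9, a growth factor, from 1.39 to -2.89. Dmtn, an actin-bundling protein, went from 1.84 to -2.25 and Gzmd, a granzyme, from 1.53 to -1.53. Knockout values of Axl after IFN-β lay within the range of the saline-treated knockout at 2 of 3 arrays.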

How the data were processed

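The deposited files are scanner output of 12 single-colour Agilent arrays. Spot intensities had their background subtracted and a multiplicative trend removed by Feature Extraction 9.5.3.1, per the file headers, and the value table that the authors deposited holds the same processed intensities. Here control and outlier spots were left out, spots of a probe averaged, log2 taken and each array's 75th percentile subtracted. Each gene is represented by its probe of highest mean signal among those kept, and 78 of 6044 genes with several probes had calls in both directions. The filter on dim probes, stated in the results, kept 26345 of 41174 probes. Groups came from the labels, and slides from the file headers. limma 3.58.1 (R 4.3.3) fitted 4 group means to 12 arrays, with 8 residual and 2.51 prior degrees of freedom. The script was tested on simulated data.

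The comparison and the gene lists were chosen with earlier results of these data known. Named genes are the 10 extremes in each direction among measured genes, the 5 largest bounds in each direction, up to 4 members of each list in each direction, the receptor and signalling genes, the 5 leading genes in each class shared with or opposite to PBS, and the 5 leading changes between treatments in each direction. Irf3, Socs7, Ifitm1, Ifitm2, Ifitm3, Oas2, Oas1a, Oas1g, Oas1b, Uba7, Ube2l6, Gvin1, Slfn2, Aim2, Ly96, H2-K1, B2m, H2-Aa, Cd74, H2-Eb1, Il6, Ifng, Tnf, Rela, Casp1, Fcgr3, Fcer1g, Adgre1, Ccr2, Mki67 and Hk1 were added after their values were seen. Some genes that the rule names are not reported here. Alternatives were the background method, the scaling, the filter, the probe rule, the slide, the replicate block and leaving out arrays. Gene names were brought up to date through RefSeq tables, and probe positions are those of the array design, mm7.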

Additional observations from a re-analysis of the deposited data

Results flagged for a closer look

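The genotype difference changed with treatment, by limma's test of the difference between the IFN-β and the PBS comparison at an adjusted p under 0.05, for 3266 genes. Each value here is the log2 difference Ifnar2-/- minus wild type after IFN-β minus the same difference after PBS, and a negative value means that the knockout stood lower relative to the wild type after IFN-β. The antiviral effectors gave -11.34 for Rsad2, -11.22 for Ifit3, -10.48 for Ifit2, -10.46 for Ifit1, -9.83 for Cmpk2, -8.53 for Mx1, -8.38 for Mx2, -8.34 for Isg15, -6.32 for Ifi44l, -6.26 for Oasl1, -6.15 for Ifi44 and -6.05 for Oas3. The feedback protease Usp18 gave -7.62, and the chemokines Cxcl11, Cxcl10 and Ccl12 gave -10.71, -10.25 and -8.67. Among genes outside those groups, the transcription factors Pou3f1 and Lhx2 gave -8.72 and -8.29, the germ cell helicase Ddx4 -9.24 and the apolipoprotein Apol9b -7.28. For Ifit1, Ifi44l, Oas3, Cxcl11, Ddx4 and Lhx2 no knockout array was well above background after IFN-β, so these fitted changes are no measured sizes. After IFN-β the knockout was at least 3855-fold, 718.4-fold, 663.8-fold, 270.2-fold, 80.85-fold and 109.8-fold lower at them. For Rsad2, Ifit3, Ifit2, Mx1, Ifi44 and Pou3f1 1 of the 3 knockout arrays was well above background, and for Mx2 and Usp18 2, so their values rest partly on unmeasured signal. Ccl12 was not well above background on any saline-treated wild-type array, and Cxcl10 on 1. Axl, Fgf9, Dmtn and Gzmd, with opposite genotype differences by treatment, gave -4.74, -4.28, -4.09 and -3.06.

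Positive values, where the knockout stood higher after IFN-β, were 5.60 for Cxcl3, 4.49 for Sox7, 4.12 for Gja1, 4.03 for Aph1c, 3.92 for Tcim, 3.84 for Prok2, 3.69 for Pdgfb, 3.40 for Pdgfa, 3.31 for Angptl4, 3.24 for DXBay18, 3.06 for Slc26a11, 2.86 for Aph1b, 2.68 for Fgd5, 2.42 for Eva1c and 2.14 for Hal. Cxcl3, Sox7, Gja1, Aph1c, Pdgfb and Fgd5 had no wild-type IFN-β array well above background, so their values depend on dim signals, and Eva1c had 1. For DXBay18 the difference after PBS was -1.97, and that after IFN-β, 1.27 (adjusted p = 0.0450), did not pass within slide 2 (0.77, adjusted p = 0.520), with normexp background correction (0.18, adjusted p = 0.650) or without any single IFN-β array (1.004 to 1.42, adjusted p of 0.0592 to 0.157). With slide as a fixed term the count of such genes was 1944. Single arrays were not tested as outliers, because every group holds 3.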

How the results depend on the processing

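Without scaling between arrays 7449 genes were higher and 1817 lower in Ifnar2-/- after IFN-β (80.39% higher, against 54.47%), 2759 genes had a positive change of the difference between treatments, and Ctss and Hspe1 turned to 0.018 and 0.022. Without a filter on dim probes 237 genes were lower after PBS and 983 had a positive change of the difference. With probes well above background on all 12 arrays Eva1c was -0.986, and with the mean of each gene's probes Gsdme was -0.815. With slide as a fixed block 4396 genes were called after IFN-β (2332 higher, 2064 lower), 31 after PBS (13 and 18), and 1944 for the change of the difference (765 positive), and the cause was not tested. Within slide 2, with 1 knockout array assumed to vary like the other groups, 3160 genes were called (1608 higher, 1552 lower). Leaving out single arrays gave 5369 to 7164 calls after IFN-β. Normexp background, quantile normalization, slide as a random block, the 6 IFN-β arrays alone and values raised to a common floor gave 6805, 7435, 7169, 5498 and 6875 calls. The last of these and the fit without the slide 3 knockout arrays were chosen after seeing the data.

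The replicate block gave 7031 calls (3923 higher, 3108 lower). Deviations of same-numbered wild-type and knockout IFN-β arrays correlated at 0.022 to 0.167, and those of differently numbered ones at -0.134 to 0.032. Of the arrays, 2 of 3 wild-type and 3 of 3 knockout ones correlated best with their own number. Whether same-numbered arrays shared more than a number cannot be told from this, and the main fit treats them as unpaired. Of 262 named genes 215 had a value in all 20 settings, and 130 of these kept direction and side of the threshold in all of them. The other 47 had no value with probes well above background on all 12 arrays. Of the 262, 4 turned direction in at least 1: Ctss, Hspe1, Eva1c and Gsdme.

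The 3 arrays per group and probes near background limit precision. In simulated data of 17397 genes, 100 were changed 2-fold and 100 4-fold, of which 59% and 80% were recovered, with 8 false calls. Far more genes, 7002, were called in the comparison itself, so these rates need not hold for it.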

Other observations

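Members of further gene groups are described here, beside 21.9% of all genes higher and 18.3% lower after IFN-β. All values are Ifnar2-/- minus wild type on the log2 scale with limma's adjusted p-values. Complement genes had 7 members lower and 2 higher of 15 (4 and 1 within slide 2). Serping1, the inhibitor of the C1 protease, read -0.20, -0.51 and 0.49 in the wild type and -4.65, -4.26 and -4.39 in the knockout, a difference of -4.36 ± 0.32 (adjusted p = 2.36e-06), and C2 and Cfb, proteases of both activation routes, differed by -2.84 ± 0.12 and -2.02 ± 0.20. The 3 chains of C1q, made by macrophages, differed by -0.07 to 0.30 and did not pass. Cd55, which protects cells from complement, was higher by 1.13 ± 0.20. Without scaling between arrays the list had 4 members lower and 5 higher, so the count by direction depends on the scaling.

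The Ly6 surface proteins were lower at 4 of 7, Ly6i, Ly6a, Ly6c1 and Ly6e, with differences of -2.41 to -1.46. Among the costimulatory and checkpoint ligands, Lgals9, which encodes galectin 9, read 4.67, 4.73 and 4.82 against 1.47, 1.36 and 1.16 and differed by -3.41 ± 0.15, and Cd69, an early activation marker, by -2.37 ± 0.36. Of 13 dendritic cell markers 5 were higher and 3 lower (2 and 3 within slide 2). Siglech, a receptor of plasmacytoid dendritic cells, was at least 3.47-fold higher (a difference of 0.44 with normexp background correction), while the lower members Cd209a and Bst2 are shared with other groups above. Among B cell markers 6 of 18 were higher and 1 lower (3 and none within slide 2), with Cr2 and Fcer2a, receptors for complement and IgE on mature B cells, higher by 2.66 ± 0.41 and 2.27 ± 0.44. The IL-1 receptor list had 2 of 7 members in each direction (none higher and 2 lower within slide 2), with Il1rap, the shared chain, at -1.10 ± 0.15. Of 11 glucocorticoid and FoxO targets 4 were higher and 2 lower, and none of the 11 passed within slide 2. Of 11 mesothelial and stromal markers 6 were lower and 1 higher, but 1 was lower and none higher within slide 2, where Col1a1, Col1a2 and Col3a1 did not pass (adjusted p = 0.0945, 0.0827 and 0.276). Lrrn4 differed by -2.72 ± 0.24, with 1 of 3 knockout arrays well above background. Of 6 eosinophil markers 2 were lower, Siglecf at -2.03 ± 0.46 and Ccr3 at -1.40 ± 0.48, with Ccr3 not past the test within slide 2 (adjusted p = 0.0991). In the large peritoneal macrophage list, Naip1, a sensor of bacterial needle proteins, was higher by 3.33 ± 0.21 and the identity factor Gata6 by 0.77 ± 0.19, whereas Selp and Timd4 differed by -1.06 ± 0.16 and -1.07 ± 0.29 and did not pass within slide 2 (-0.89 and -0.69, adjusted p = 0.0559 and 0.355). Timd4 also did not pass with quantile normalization, without scaling, with the 6 IFN-β arrays alone or with slide in the model (adjusted p of 0.0541 to 0.147).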
